A study of Homo sapiens with 24 samples.

Results

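The 163 genes described here lie on human chromosome 18 and had a mean raw read count of at least 20 over the 12 OE33 libraries. They are 163 of 58735 genes in the count table and of 1183 on the chromosome. The limit was passed by 166 genes, from which GATA6 and names starting with RPL, RPS or NDUF, 3 genes in all, were left out. Of the members, 153 were protein coding, 42 lay on the short (p) arm and 121 on the long (q) arm. The arm boundary was taken as the widest stretch without annotated genes, from base 15330282 to base 20946906 in GRCh38. The set was selected on RNA levels, since chromosome 18 genes had been seen to be higher in OE33 cGAS KO than in OE33 Cas9 control libraries. The values of that contrast are therefore given as a description, with no p-value for a member, and RNA level, not DNA copy number, was measured.

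OE33 and SK-GT-4 are established esophageal adenocarcinoma cell lines. Each was studied as a Cas9 control, which kept the CGAS gene (labelled cGAS WT), and as cGAS KO, in which CGAS had been cut with CRISPR-Cas9. CGAS encodes a sensor of DNA in the cytosol. Both genotypes received DMSO, the solvent, or 500 nM Reversine for 48 hours. Reversine inhibits MPS1, a kinase of the spindle checkpoint, and its groups are called MPS1i. There were 8 groups of 3 libraries, with replicates 1 to 3 in batches 1 to 3. The study worked with cell clones, and the labels do not name the clone behind each library. Genotype and clone therefore cannot be told apart, and neither can any change that a clone acquired before it was grown.

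Genes on one chromosome need not share a function, but a gain or loss of the chromosome, or of part of it, changes the copy number of the genes it covers. Cells that mis-segregate chromosomes, as esophageal adenocarcinoma lines often do, can gain or lose a whole chromosome or an arm, and RNA from many of its genes then tends to shift together. MPS1 delays the separation of chromosomes until all are attached to the spindle, and its inhibition raises the rate of segregation errors. Chromosome 18 carries SMAD4, SMAD2 and SMAD7 of the TGF-beta pathway, the desmosomal cadherins, a cluster of serpins and the apoptosis inhibitor BCL2.

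The guide used against CGAS and the sequence that follows it in hg38 are shown because the targeted gene is the first check of the labels. Its last 3 bases, in capitals, are the NGG motif that Cas9 requires.

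CGAS guide, chr6:73451711-73451730, plus strand: atccctccgtacgagaatggGGG

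It lay in exon 1 of CGAS, which is read from the minus strand. On chromosome 18, no stretch next to an NGG matched the guide with 3 or fewer mismatches, 1 matched with 4 and 5 matched with 5. CGAS stood at 28.6 to 40.7 CPM (counts scaled to library size with the trimmed mean of M values, TMM) in the 6 OE33 Cas9 libraries. It stood at 2.23 to 2.72 CPM in 5 of the 6 OE33 cGAS KO libraries and at 15.3 CPM in the library labelled cGAS KO DMSO replicate 2, which thus went partly against its label. In SK-GT-4, CGAS stood at 15.3 to 26.1 CPM in the Cas9 libraries and at 2.30 to 6.19 CPM in the cGAS KO libraries. The 24 libraries held 15561268 to 25284177 counts each. All 5 epithelial markers examined were present in every library (KRT8 at 1470 CPM or more), although CDH1 was at 4.11 CPM in the lowest SK-GT-4 library. Of 8 markers of leukocytes, endothelium and fibroblasts, PTPRC, CD3E, VWF and COL3A1 stayed at or under 0.37 CPM, and PDGFRB at or under 1.74 CPM. The other 3 were detected, most of all in SK-GT-4, where CD14 reached 31.2 CPM, COL1A1 77 CPM and PECAM1 10.2 CPM, and their part in the results was not tested. The library labelled cGAS KO DMSO replicate 2 of OE33 is followed separately, and medians, counts and tested values that it moves are also given without it.

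In OE33, nearly the whole chromosome was higher in cGAS KO. The fitted log2 difference, averaged over DMSO and MPS1i, was above 0 for 156 of the 163 members, against 48.3% of all 20426 genes tested. Its median was 0.53, a 1.44-fold difference, with quartiles of 0.39 and 0.72. Over all genes tested the median was -0.02, with quartiles of -0.30 and 0.28. With edgeR and a threshold of 0.01 on the adjusted p, 94 members were called higher, where 5.41% of all genes were, and 0 lower, where 3.97% of all genes were. With the rule resting on this contrast, nothing is read from these counts. For 14 members the cGAS KO level was 2 times the Cas9 level or more, and for 7 it was below the Cas9 level. Without the library labelled cGAS KO DMSO replicate 2 the median was 0.57, with 156 members above 0, and 129 members were called higher (7.95% of all genes). In DMSO alone the median was 0.48 with 24 members called higher (1.0% of all genes), and in MPS1i alone it was 0.56 with 34 called (1.88%). Without that library, 59 (2.92%) and 70 (3.91%) were called higher. Without the term for the batch, 21 members were called higher over both treatments (0.793% of all genes).

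**Figure D1:**
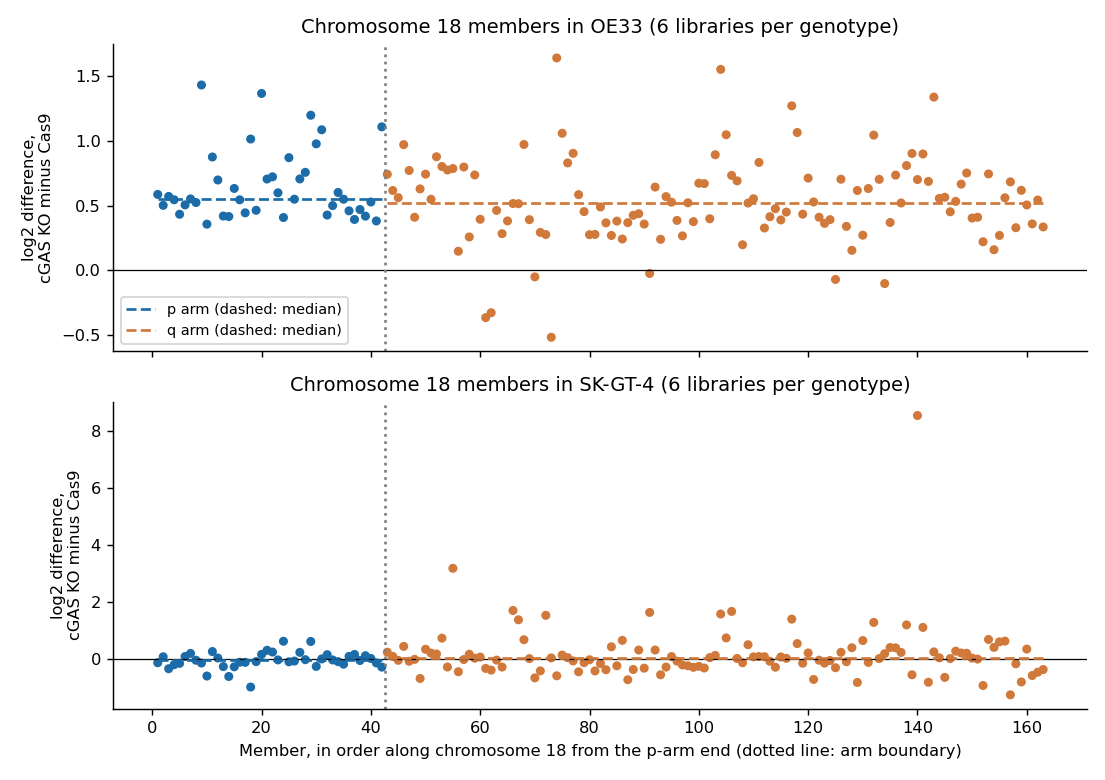
Fitted log2 difference between cGAS KO and Cas9 (vertical axis, mean of DMSO and MPS1i) for each member, ordered along chromosome 18 from the end of the p arm (horizontal axis, rank). OE33 is at the top and SK-GT-4 below it on a wider scale. Points are members, dashed lines are arm medians, at 0.55 (p) and 0.52 (q) in the OE33 panel and at -0.05 (p) and 0.02 (q) in the SK-GT-4 panel. Of the 163 OE33 points, 156 lie above 0.

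Each batch gave the pattern by itself. The median difference over members was 0.58 in batch 1, 0.43 in batch 2 and 0.57 in batch 3, with 154, 157 and 153 of 163 members above 0. In DMSO the medians were 0.60, 0.20 and 0.55, where batch 2 holds the library that stands apart. In MPS1i they were 0.54, 0.56 and 0.57. The members took 0.458 to 0.487% of nonmitochondrial counts in the OE33 Cas9 libraries and 0.724 to 0.789% in 5 cGAS KO libraries. The share was 0.576% in the library labelled cGAS KO DMSO replicate 2.

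Chromosome 18 had the highest median of the 23 chromosomes compared in OE33 (1 to 22 and X, genes with a mean count of at least 20). Chromosome 14 was next, with a median log2 difference of 0.29 over 396 genes and 84.1% of them above 0. Chromosome X followed at 0.11. Chromosomes 8, 12, 16 and 6 had the lowest medians, at -0.28, -0.24, -0.14 and -0.14. In SK-GT-4 chromosome 18 ranked 11th with a median of 0.01 over the 158 genes that reached the count limit there, while chromosome 7 was highest at 0.45 and chromosome 10 lowest at -0.38.

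**Figure D2:**
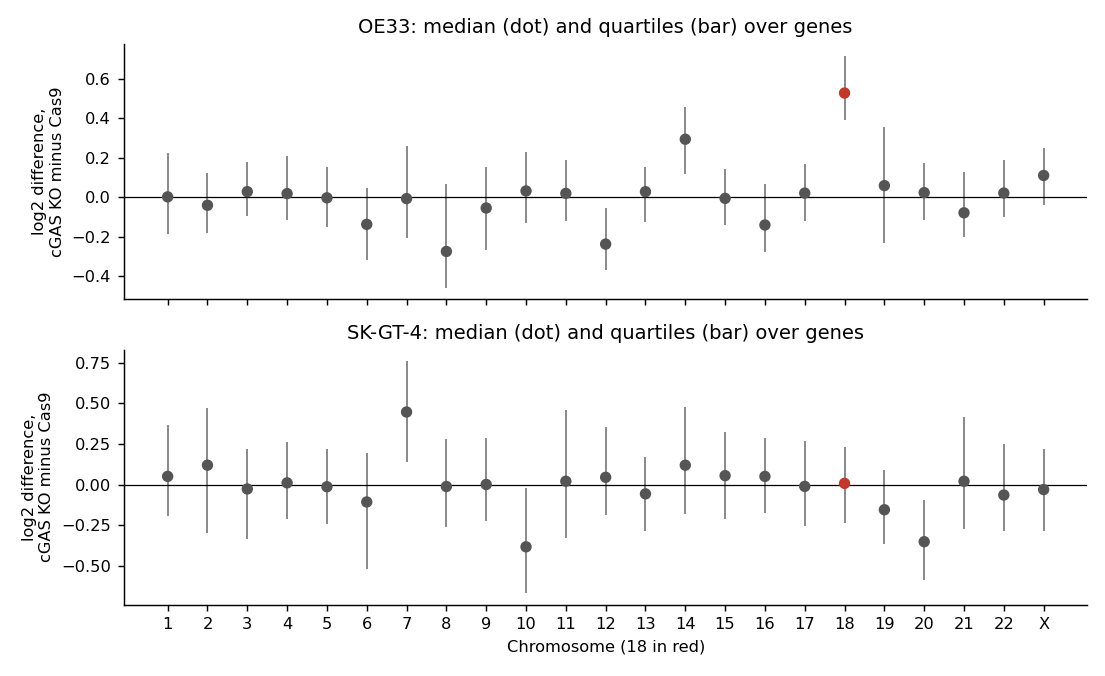
Median (dot) and quartiles (bar) of the fitted log2 difference between cGAS KO and Cas9 (vertical axis) over the genes of each chromosome (horizontal axis) with a mean count of at least 20, in OE33 (top) and SK-GT-4 (bottom). Chromosome 18 (red) is at 0.53 in OE33 and at 0.01 in SK-GT-4.

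Both arms were higher in OE33 cGAS KO. The p arm median was 0.55, with quartiles of 0.46 and 0.72 and all 42 members above 0. The q arm median was 0.52, with quartiles of 0.36 and 0.71 and 114 of 121 members above 0. In groups of about 20 neighbouring members, the fitted medians were 0.55 and 0.55 along the p arm. They were 0.68, 0.46, 0.38, 0.54, 0.62 and 0.53 along the q arm, so that no block median was below 0.38. Without the library labelled cGAS KO DMSO replicate 2 the arm medians were 0.55 (p) and 0.59 (q), and the blocks ranged from 0.47 to 0.72. The lowest stretch ran from RPRD1A to DYM and the highest from ROCK1 to TAF4B. The pseudogene ANKRD20A5P, the last member before the arm boundary, had a log2 difference of 1.11 ± 0.20 (SE). ROCK1, the first member after the boundary, had one of 0.74 ± 0.11.

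The arms parted in 1 library. Here the level of a library is the median over members of its log2 CPM minus the mean of the 6 Cas9 libraries. On the p arm, the 3 cGAS KO DMSO libraries stood at 0.66, 0.71 and 0.47, and the 3 cGAS KO MPS1i libraries at 0.61, 0.60 and 0.40. On the q arm the DMSO libraries stood at 0.63, 0.12 and 0.57, and the MPS1i libraries at 0.62, 0.65 and 0.53. The library labelled cGAS KO DMSO replicate 2 was thus the highest of the 6 on the p arm and the lowest on the q arm. The Cas9 libraries lay between -0.11 and 0.07 on the p arm and between -0.03 and 0.02 on the q arm, below every cGAS KO library. Over all members the 5 other cGAS KO libraries averaged 0.58 ± 0.0596 (SD, n = 5), a 1.5-fold level, and all 6 averaged 0.53 ± 0.135 (SD, n = 6).

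**Figure D3:**
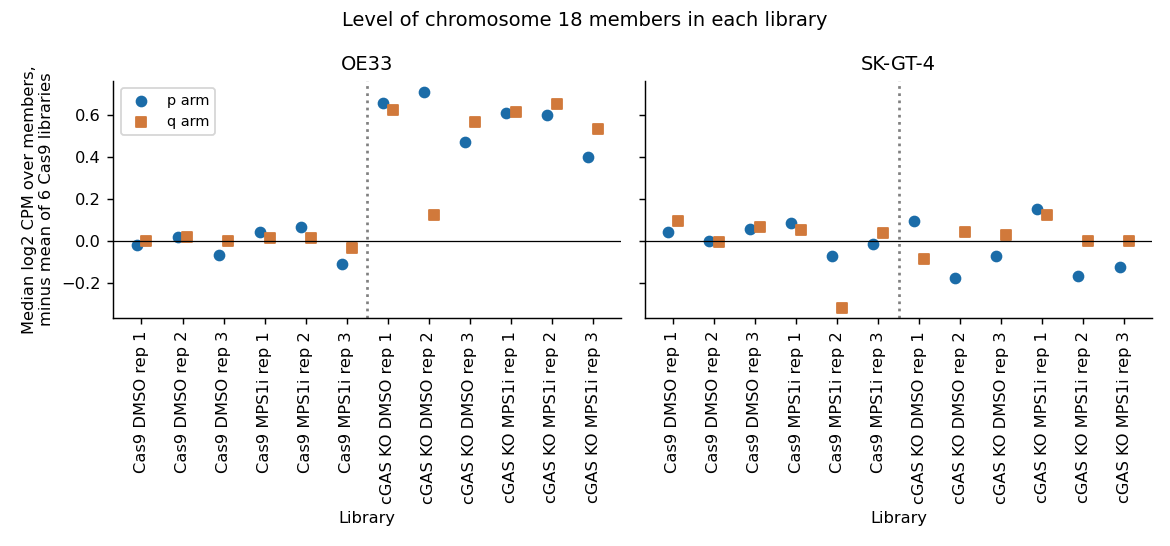
Median over members of log2 CPM minus the mean of the 6 Cas9 libraries of the same line (vertical axis) for each library (horizontal axis), on the p arm (circles) and q arm (squares). In OE33 the library labelled cGAS KO DMSO replicate 2 is at 0.71 on the p arm and 0.12 on the q arm, and the other cGAS KO libraries lie at 0.40 or above on both arms. In SK-GT-4 the levels of both genotypes overlap.

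Member by member, that library lay below all 5 other cGAS KO libraries at 76 of 121 q arm members (62.8%) and at 9 of 42 p arm members (21.4%). The same held for 21.1% of 12139 genes of other chromosomes with a mean count of at least 20. It lay above all 5 at 15 p arm members (35.7%) and 5 q arm members (4.13%), beside 25.4% of genes of other chromosomes. Its CPM did not exceed the highest Cas9 library at 86 of 121 q arm members and at 5 of 42 p arm members. This was also so at 9326 of the 12139 genes of other chromosomes. The library labelled cGAS KO DMSO replicate 2 exceeded the highest Cas9 library at 72 of all 163 members. In the 5 other cGAS KO libraries, 121 to 138 members did.

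Along the q arm its 6 successive block medians were 0.25, 0.12, -0.05, 0.24, -0.03 and 0.12, where the 5 other cGAS KO libraries stayed between 0.34 and 0.78. The first q arm members were mixed. ROCK1 stood at 0.80 in this library and at 0.73 on average in the others. ESCO1, an acetyltransferase of sister chromatid cohesion, stood at 0.58 beside 0.61, SNRPD1, a core spliceosome protein, at 0.67 beside 0.53, and RMC1 at 0.84 beside 0.88. NPC1, which exports cholesterol from lysosomes, is the next member after RMC1 and stood at 0.03 beside 0.95. CABLES1, which lies between SNRPD1 and RMC1, stood at -0.02 beside 0.75. These levels use the Cas9 libraries of all batches, and NPC1 was highest in batch 3 in every OE33 group. Beside Cas9 DMSO replicate 2, of its own batch, this library had 73.9 against 54.7 CPM for NPC1. For CABLES1 it had 24.7 against 20.6 CPM. These genes were picked out after their values were seen. On the p arm, the thymidylate synthase gene TYMS stood at 1.09 beside 0.45 and the kinetochore gene NDC80 at 1.01 beside 0.45. EMILIN2, an extracellular matrix glycoprotein, went the other way, at -1.76 beside 1.68. Its counts were low, with 0.233 CPM in this library and a mean of 1.10 CPM in the Cas9 libraries.

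**Figure D4:**
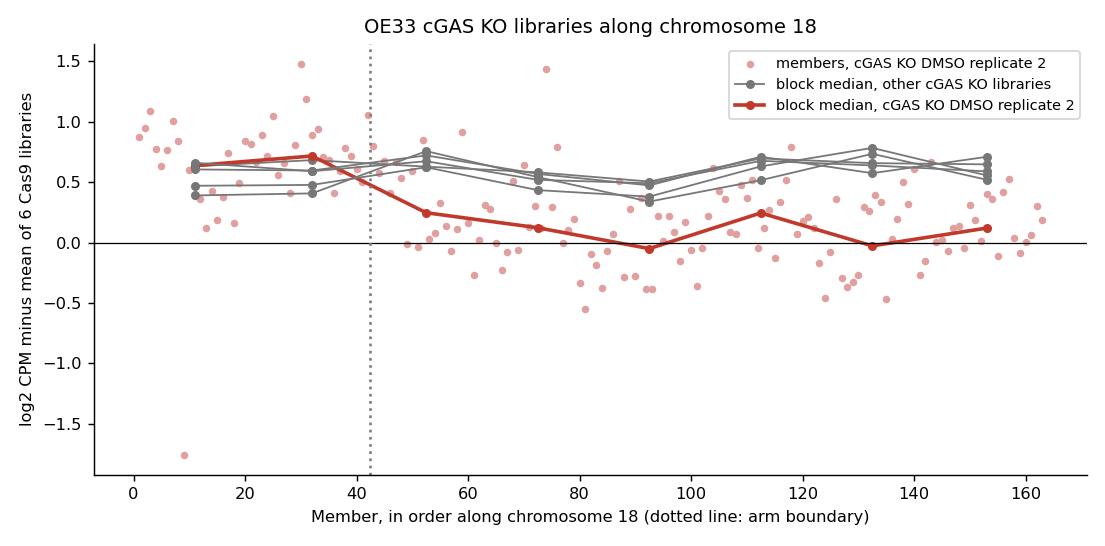
log2 CPM minus the mean of the 6 Cas9 libraries (vertical axis) along chromosome 18 (horizontal axis, member rank) in OE33. Lines join the medians of 8 blocks of 20 or 21 neighbouring members in each cGAS KO library, and pale points are the members in the library labelled cGAS KO DMSO replicate 2 (red line). The red line is at 0.64 and 0.72 on the p arm and between -0.05 and 0.25 on the q arm, where grey lines lie between 0.34 and 0.78.

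Other chromosomes also set this library apart. Chromosome 16 stood at 0.11 in it and between -0.16 and -0.13 in the 5 other cGAS KO libraries. Chromosome 13 stood at 0.20 beside -0.11 to 0.02, and chromosome 8 at -0.06 beside -0.31 to -0.22. Chromosome 14, at 0.33, was within the range of the others, 0.18 to 0.35. CGAS at 15.3 CPM, the q arm level and these chromosomes moved together in the library. The part that any mixture of cells or exchange of samples had in this was not tested.

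The set was chosen because chromosome 18 was higher in OE33 cGAS KO, and 156 of 163 members (95.7%) were above 0. Counts above 0 on the lists below therefore say nothing about their functions. Among the 16 members with roles in the cell cycle, chromosome segregation or replication, all 16 were above 0 in OE33, with a median of 0.53 (0.52 without the library that stands apart). SEH1L, a nucleoporin that also acts at kinetochores, ranged from 39.9 to 55.3 CPM in the Cas9 libraries (median 50.9) and from 47.5 to 90.8 CPM in the cGAS KO libraries (median 69.6), a log2 difference of 0.47 ± 0.08. The ranges overlapped, and the 2 lowest cGAS KO libraries were those of batch 3, in which the Cas9 libraries were also lowest. CHMP1B and VPS4B, parts of the ESCRT machinery that completes cell division, had log2 differences of 0.76 ± 0.08 and 0.52 ± 0.10. CHMP1B ranged from 29.0 to 43.7 CPM in Cas9 and from 47.1 to 71.6 CPM in cGAS KO, without overlap. NDC80 ranged from 9.03 to 14.0 CPM in Cas9 and from 11.9 to 23.3 CPM in cGAS KO, with its highest value in the library labelled cGAS KO DMSO replicate 2.

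All 7 members of the TGF-beta, Wnt and BMP list were above 0, with a median of 0.39 (0.46 without that library). SMAD4, the common partner of the receptor-activated SMADs, ranged from 18.9 to 22.2 CPM in Cas9 (median 21.4) and from 20.4 to 30.2 CPM in cGAS KO (median 27.9). Its only cGAS KO value inside the Cas9 range was that of the library labelled cGAS KO DMSO replicate 2. The log2 difference was 0.33 ± 0.10 for SMAD4, 0.38 ± 0.10 for SMAD2 and 0.42 ± 0.09 for TGIF1, a repressor of TGF-beta target genes. NEDD4L, a ubiquitin ligase of SMADs and sodium channels, was at 42.9 to 61.7 CPM in Cas9 and at 62.1 to 97.2 CPM in the 5 other cGAS KO libraries. It was at 38.7 CPM, below all Cas9 libraries, in the library that stands apart.

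Adhesion, desmosome and cytoskeleton genes counted 7 members, all above 0, with a median of 0.70 (0.75 without that library). DSG2, a desmosomal cadherin, was at 198, 242 and 393 CPM in Cas9 DMSO and at 230, 248 and 383 CPM in Cas9 MPS1i. It was at 271, 258 and 664 CPM in cGAS KO DMSO and at 284, 353 and 746 CPM in cGAS KO MPS1i, in the order of the batches. Batch 3 was highest in all 4 groups. Within each batch and treatment the cGAS KO library was above the Cas9 library, and the log2 difference was 0.52 ± 0.10. MYL12A and MYL12B, regulatory light chains of nonmuscle myosin that lie side by side on the p arm, had log2 differences of 0.88 ± 0.10 and 0.70 ± 0.10. The 2 genes have closely similar sequences, so reads shared between them could be counted for either. LAMA3, a laminin chain of epithelial basement membranes, had one of 0.79 ± 0.13.

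All 6 members of the cell death and serpin list were above 0, with a median of 0.76 (0.79 without that library). SERPINB5, the serpin maspin, ranged from 56.7 to 85.8 CPM in Cas9 and from 99.9 to 151 CPM in cGAS KO, without overlap. SERPINB2, an inhibitor of plasminogen activators, varied more, from 35.9 to 182 CPM in Cas9 and from 62.6 to 237 CPM in cGAS KO, and its ranges overlapped. PMAIP1, the proapoptotic protein NOXA, was at 37.7 to 44.1 CPM in the 5 other cGAS KO libraries and at 18.9 CPM in the library labelled cGAS KO DMSO replicate 2. The Cas9 libraries held 16.2 to 29.7 CPM.

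The 18 members of the membrane traffic and lipid handling list were all above 0, with a median of 0.53 (0.56 without that library), and they spread from 0.15 to 1.55. LIPG, endothelial lipase, had the largest log2 difference of all members with a mean count of at least 100, 1.55 ± 0.13, a 2.94-fold difference. It was at 61.4, 60.7 and 96.8 CPM in Cas9 DMSO and at 52.9, 56.4 and 74.5 CPM in Cas9 MPS1i. It was at 165, 101 and 359 CPM in cGAS KO DMSO and at 159, 156 and 332 CPM in cGAS KO MPS1i. All cGAS KO libraries were above all Cas9 libraries, and batch 3 was the highest in all 4 groups. RAB27B, a GTPase of secretory vesicles, ranged from 16.7 to 30.6 CPM in Cas9 and from 32.3 to 79.2 CPM in cGAS KO (log2 difference 1.27 ± 0.14). LMAN1, a cargo receptor between endoplasmic reticulum and Golgi, was at the other end, with 107 to 196 CPM in Cas9, 107 to 253 CPM in cGAS KO and a log2 difference of 0.15 ± 0.09.

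The list of mitochondrial proteins held 7 members, all above 0, with a median of 0.55 (0.62 without that library). ATP5F1A, a subunit of the ATP synthase, ranged from 198 to 267 CPM in Cas9 and from 272 to 440 CPM in cGAS KO, and its lowest cGAS KO value was again that of the library labelled cGAS KO DMSO replicate 2. ACAA2, a thiolase of fatty acid oxidation, had a log2 difference of 1.05 ± 0.14, ME2 one of 0.55 ± 0.09 and AFG3L2, a mitochondrial protease, one of 0.43 ± 0.10. The RNA and protein metabolism list held 22 members, all above 0, with a median of 0.42 (0.48 without that library). USP14, a deubiquitinase of the proteasome near the end of the p arm, had a log2 difference of 0.59 ± 0.08, and the asparaginyl tRNA synthetase NARS one of 0.41 ± 0.09. On the list of signalling kinases, phosphatases and immune regulators, 12 of 15 members were above 0, with a median of 0.43 (0.46 without that library). YES1, a SRC family kinase, had a log2 difference of 0.43 ± 0.08 and RIOK3 one of 0.55 ± 0.10. These 8 lists held 97 of the 163 members, and NARS was on both the RNA and protein metabolism list and the membrane traffic list. The list names are headings, and not every member has the role named. Examples are NARS and FAM210A on the membrane traffic list and CTIF on the TGF-beta list. DSEL and WDR7 on the RNA and protein metabolism list are others.

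The exceptions were few and lay on the q arm. The 7 members below 0 were DHFRP1, TAF4B, RNF125, HNRNPA1P7, SIGLEC15, MALT1 and PHLPP1. DHFRP1 and HNRNPA1P7 are processed pseudogenes of highly expressed genes elsewhere, so their counts may include reads of the parent genes. TAF4B, a subunit of TFIID, ranged from 5.28 to 7.35 CPM in Cas9 and from 4.27 to 6.61 CPM in cGAS KO, with a log2 difference of -0.33 ± 0.13. MALT1, a protease of antigen receptor signalling, was at 25.5 to 36.3 CPM in Cas9 and at 23.4 to 32.05 CPM in cGAS KO (-0.07 ± 0.09). PHLPP1, a phosphatase of AKT, was at 14.5 to 22.1 CPM in Cas9 and at 10.03 to 22.2 CPM in cGAS KO (-0.10 ± 0.12). The groups overlapped for all 3 genes. At the upper end, among members with a mean count of at least 100, LIPG was followed by MTCL1, a microtubule crosslinker, at 1.37 ± 0.16, TMX3, a thioredoxin-like protein of the endoplasmic reticulum, at 1.34 ± 0.10, RAB27B at 1.27 and MPPE1 at 1.199 ± 0.13. With fewer counts, MAPRE2 (mean count 30) was at 1.64 ± 0.29 and EMILIN2 (42.7) at 1.43 ± 0.32. At the count limit, SIGLEC15 (mean count 21.1) and PRELID3A (27.9) lay just inside with log2 differences of -0.02 and 0.50. AC017100.1 (15.5) and ZNF519 (17.7) lay just outside with 1.58 and 0.37.

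**Figure D5:**
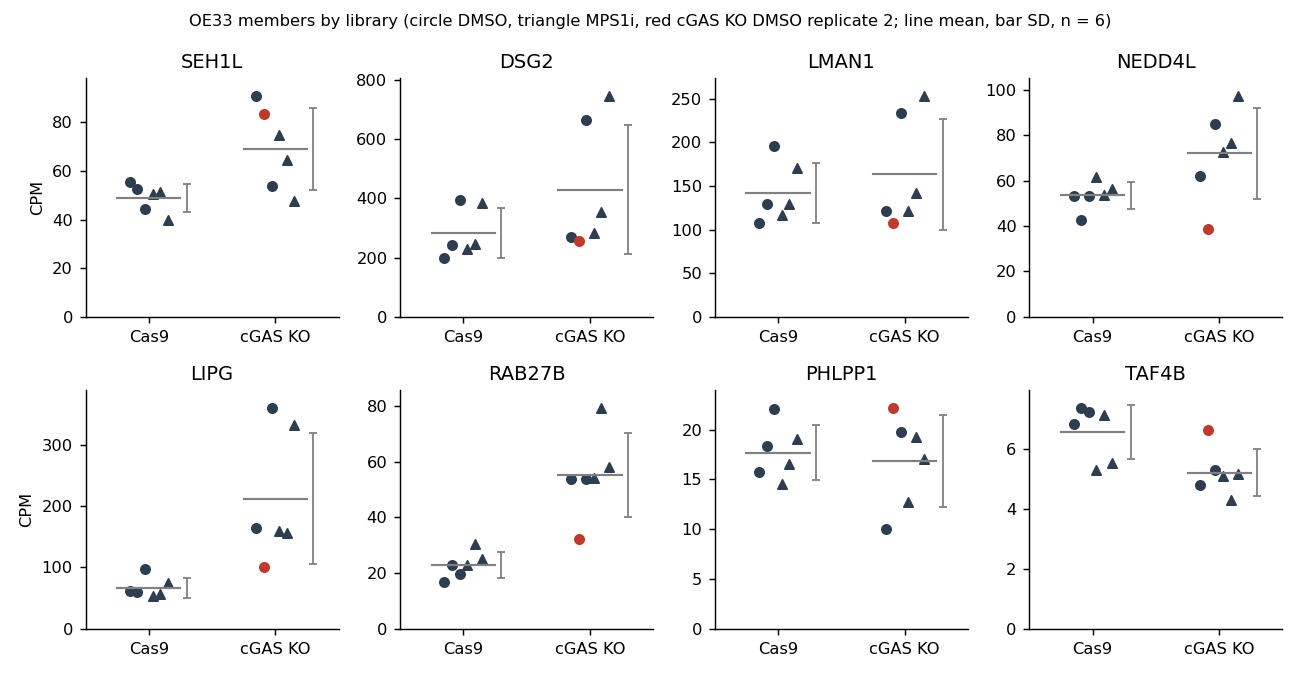
CPM (vertical axis, from 0) of 8 members in each OE33 library, by genotype (horizontal axis). Circles are DMSO, triangles MPS1i, lines means and bars SDs (n = 6), and red marks the library labelled cGAS KO DMSO replicate 2. LIPG and RAB27B do not overlap between genotypes, and LMAN1, PHLPP1 and TAF4B do.

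In CPM, 46 members had all 6 cGAS KO libraries above all 6 Cas9 libraries, where 2.04% of all genes tested did, 23 of them on each arm. Leaving out the library labelled cGAS KO DMSO replicate 2 gave 88 members (4.03% of all genes), 25 on the p arm and 63 on the q arm. No member had all cGAS KO libraries below all Cas9 libraries, where 1.68% of all genes did. The size of the difference did not follow the level of the gene across members (Pearson r = -0.04, Spearman rho = -0.06 with the log mean count, 163 genes that share the same libraries).

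Promoter windows from RefSeq (GRCh38.p14, 250 bases before to 50 after the start) were matched for 137 members. They are shown for the member with the highest count and for those with the largest and the smallest difference among matched members with a mean count of at least 100 (DHFRP1, which was lower still, had no window), because members this far apart in response lie on the same chromosome. Capitals mark 3 motifs, searched on either strand. The GC box was spelled GGGCGG. The CCAAT box was searched by the letters of its name, and the TATA box as TATAAA.

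DSG2, chr18:31497927-31498226, plus strand: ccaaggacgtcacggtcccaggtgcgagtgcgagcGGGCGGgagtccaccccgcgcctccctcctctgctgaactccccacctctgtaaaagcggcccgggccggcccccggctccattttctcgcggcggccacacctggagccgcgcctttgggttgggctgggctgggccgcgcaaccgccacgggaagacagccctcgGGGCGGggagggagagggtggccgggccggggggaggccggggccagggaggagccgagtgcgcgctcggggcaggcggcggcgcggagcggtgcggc
LIPG, chr18:49561807-49562106, plus strand: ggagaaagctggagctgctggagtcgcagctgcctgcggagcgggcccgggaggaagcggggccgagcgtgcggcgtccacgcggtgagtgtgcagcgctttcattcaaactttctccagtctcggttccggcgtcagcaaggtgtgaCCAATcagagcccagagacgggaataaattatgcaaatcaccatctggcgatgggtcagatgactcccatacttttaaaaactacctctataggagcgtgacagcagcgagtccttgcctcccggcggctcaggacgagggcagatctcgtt
TAF4B, chr18:26226195-26226494, plus strand: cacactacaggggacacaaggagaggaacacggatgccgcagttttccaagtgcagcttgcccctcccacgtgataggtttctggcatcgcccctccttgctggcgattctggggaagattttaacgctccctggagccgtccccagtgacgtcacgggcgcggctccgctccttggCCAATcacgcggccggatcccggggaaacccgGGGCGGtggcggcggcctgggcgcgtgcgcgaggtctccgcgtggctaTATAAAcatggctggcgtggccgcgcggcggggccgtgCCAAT

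The DSG2 window held 2 GC boxes, the LIPG window 1 CCAAT, and the TAF4B window 1 GC box, 2 CCAAT and 1 TATAAA. The member windows had a median G and C content of 67.7%, beside 65.7% for 9390 windows of genes of other chromosomes with a mean count of at least 20 and 58.3% for all 26752 windows of other chromosomes. A GC box was in 73.7% of member windows, beside 71.5% and 44.7%. CCAAT was in 31.4%, beside 36.8% and 35.9%, and TATAAA in 5.11%, beside 5.42% and 11.9%. The median OE33 log2 difference was 0.53 for the 101 members with a GC box and 0.52 for those without. It was 0.44 for the 43 members with CCAAT and 0.55 for those without. For the 7 members with TATAAA it was 0.70, beside 0.53 for those without, and none of these differences was tested.

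MPS1 inhibition, which the choice of members did not use, left them close to their DMSO level. In OE33 Cas9 the median log2 difference between MPS1i and DMSO was 0.01 over members and 0.01 over all genes tested. No member passed the threshold of 0.01 with edgeR (0.0049% of all genes did), and 8 had an unadjusted p under 0.05, 4.91% of members beside 6.95% of all genes. Among genes of other chromosomes with a mean count of at least 20, as members have, the share was 9.42%. In OE33 cGAS KO the median was 0.09 over members, with -0.03 on the p arm and 0.12 on the q arm. No member was called by edgeR (0.0% of all genes), and 17 had an unadjusted p under 0.05, 10.4% of members beside 6.95% of all genes. Among genes of other chromosomes with that mean count the share was 9.17%. Without the library labelled cGAS KO DMSO replicate 2 the median over members was -0.04, and 4 members had an unadjusted p under 0.05 (5.21% of all genes). DESeq2 called 0 members in either genotype at this threshold, with 5 and 15 at an unadjusted p under 0.05.

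The members with the smallest p-values were few and uncertain. SERPINB2 was at 142, 35.9 and 81.0 CPM in Cas9 DMSO and at 182, 83.6 and 179 CPM in Cas9 MPS1i, higher in MPS1i in each batch, with a log2 difference of 0.89 ± 0.22 (adjusted p = 0.344, edgeR). Its adjusted p ranged from 6e-08 to 1.0 over the alternatives, and it passed the threshold without a filter on low counts and with a separate replicate block for each genotype and batch. RIOK3, an atypical protein kinase, was at 56.5, 55.1 and 49.3 CPM in Cas9 DMSO and at 68.9, 78.2 and 65.2 CPM in Cas9 MPS1i (log2 difference 0.40 ± 0.15, adjusted p = 0.608, edgeR). It was at 86.2, 60.0 and 91.0 CPM in cGAS KO DMSO and at 96.9, 104 and 109 CPM in cGAS KO MPS1i (0.39 ± 0.14, adjusted p = 0.621, edgeR). The value of 60.0 CPM was that of the library labelled cGAS KO DMSO replicate 2, and without it the cGAS KO difference was 0.17 ± 0.13 (adjusted p = 0.936, edgeR). RIOK3 was higher with MPS1i in all 6 pairs of libraries, the one with that library included, but did not pass the threshold in either genotype. MAPRE2 in Cas9 and CABLES1 and NEDD4L in cGAS KO had adjusted p-values of 0.621 each (edgeR). Without that library, CABLES1 was at 0.22 in place of 0.41 and NEDD4L at 0.21 in place of 0.44.

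The difference between the genotypes in their response to MPS1i was tested as an interaction. The median over members was 0.07, with -0.09 on the p arm and 0.14 on the q arm, and it was -0.07 without the library labelled cGAS KO DMSO replicate 2. No member was called by edgeR (0.0% of all genes), 2 had an unadjusted p under 0.05 (1.88% of all genes), and DESeq2 called 0, with 1 under that p. SERPINB2 had the smallest p, with an interaction of -1.29 ± 0.32 (adjusted p = 1.0, edgeR, range 8.42e-08 to 1.0 over the alternatives), and one of -0.93 ± 0.22 without the library that stands apart (adjusted p = 1.0, edgeR). In cGAS KO it was at 237, 156 and 175 CPM in DMSO and at 237, 62.6 and 198 CPM in MPS1i. In SK-GT-4, edgeR called 0 members for MPS1i in either genotype (0.0% of all genes in both). Unadjusted p-values under 0.05 numbered 2 in Cas9 (2.48% of all genes) and 0 in cGAS KO (1.39%). DESeq2 called 0 members in both, with 3 and 1 under that p.

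In SK-GT-4, the contrast of cGAS KO with Cas9 gave the members no common direction. Of the 163 members, 162 passed the filter there, and DSC3 did not. The median log2 difference was -0.0008, with 81 members above 0 and 81 below, beside 49.0% of all 22782 genes above 0. On the p arm the median was -0.05 and on the q arm 0.02. The quartiles, -0.25 and 0.23, were wider apart than those of the same genes in OE33. Genes of other chromosomes with a mean count of at least 20 also spread wider in SK-GT-4. Their quartiles were -0.29 and 0.33 there, and -0.20 and 0.19 in OE33. The library levels ranged from -0.28 to 0.08 in Cas9 and from -0.06 to 0.13 in cGAS KO and overlapped. Here the test was independent of the choice of members. It called 10 members higher (6.17%, beside 3.59% of all genes) and 4 lower (2.47%, beside 2.67%), all 14 on the q arm. An unadjusted p under 0.05 (edgeR) was found for 25.3% of members and 25.2% of all genes. For genes of other chromosomes with a mean count of at least 20 in SK-GT-4 the share was 30.6%. In DMSO alone SERPINB2 was called higher (1 of 162 members, beside 1.1% of all genes), and in MPS1i alone 4 were (2.47%, beside 0.812%). No member was called lower in either (0.658% and 0.597% of all genes). Leaving out batch 1, 2 or 3 gave 10, 8 and 0 calls in the mean of both treatments, beside 5.78%, 4.71% and 0.156% of all genes.

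The genes called higher in SK-GT-4 cGAS KO included 3 of 6 tested members of the adhesion list. They also included 3 of 6 of the cell death and serpin list, where 3.59% of all genes were called higher. SERPINB2 had 0 counts in all 6 Cas9 libraries and 262 counts over the 6 cGAS KO libraries, 4 to 103 per library. Against a floor of 3 counts over the Cas9 group, its level was at least 83.9-fold higher in cGAS KO (adjusted p = 0.000305, edgeR). LAMA3 ranged from 18.4 to 45.2 CPM in Cas9 and from 50.7 to 626 CPM in cGAS KO, with a log2 difference of 3.19 ± 0.41 (adjusted p = 0.000496, edgeR), and its lowest cGAS KO value was that of DMSO replicate 1. DSC2, a desmosomal cadherin, ranged from 5.68 to 9.54 CPM in Cas9 and from 11.97 to 31.1 CPM in cGAS KO (1.71 ± 0.21, adjusted p = 0.000408, edgeR). LIPG rose by 1.58 ± 0.20 (adjusted p = 0.000523, edgeR), from 11.8 to 18.01 CPM in Cas9 to 18.4 to 71.8 CPM in cGAS KO. Values did not overlap between the genotypes for these 4 genes. The other 6 called higher were MYO5B at 1.67, GAREM1 at 1.54, RAB27B at 1.40, the RANK receptor gene TNFRSF11A at 1.29, SERPINB5 at 1.199 and SERPINB8 at 1.11. SERPINB7 went the other way, with 4.79 to 7.06 CPM in Cas9 and 2.98 to 5.46 CPM in cGAS KO, and was not called. DSG2, at 1.38 ± 0.32, missed the threshold (adjusted p = 0.0160, edgeR). The 4 called lower were PMAIP1 at -0.83, DSEL at -0.82, FECH, which inserts iron into protoporphyrin to form heme, at -0.72, and CABLES1 at -0.68.

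Set side by side, the 10 members called higher in SK-GT-4 had OE33 log2 differences of 0.28 (GAREM1) to 1.55 (LIPG), and the 4 called lower had OE33 differences of 0.53 (FECH) to 0.69 (DSEL). Across 162 members the 2 differences had a Pearson r of 0.15 and a Spearman rho of 0.24, as a description over genes that share libraries within each line. In total, 12 members had all SK-GT-4 cGAS KO libraries above all Cas9 libraries (7.41%, beside 3.61% of all genes) and 3 had them below (1.85%, beside 3.55%).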

How the data were processed

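Poly(A)-selected RNA of 24 libraries was sequenced. Per the labels and the methods of the study, the authors mapped the reads to GRCh38 with HISAT2 2.0.5 and deposited raw read counts per gene made with featureCounts 1.5.0. The annotation release and the strand setting are not given in the sources used here. Depth was 15561268 to 25284177 counts per library. The members and gene lists were chosen with earlier results of these data known. Members were genes on chromosome 18 with a mean raw count of at least 20 in OE33. The study corrected batches with ComBat and tested with DESeq2. Here batch was a term of the model, and DESeq2 served as an alternative. Genes with at least 5 counts in all and nonzero counts in at least 4 libraries of a line were tested with the edgeR 4.0.16 quasi-likelihood test on the counts as deposited, with TMM factors, group means and a batch term, in each line separately. Benjamini-Hochberg adjustment ran over all genes tested. Calls required an adjusted p of at most 0.01. SEs are the log2 difference divided by the root of the F statistic. log2 CPM used a prior count of 2.

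Replicate numbers pair the libraries because the labels give them as batches. Deviations from the group means correlated between the DMSO and MPS1i libraries of a batch and genotype at 0.431 to 0.811 in OE33 and at 0.104 to 0.718 in SK-GT-4. No 2 libraries held identical counts. The study calls the replicates biological, and p-values measure the spread between these libraries, which for each genotype may share 1 clone. Genes named in the text were CGAS, the members with the highest counts on each list, the 5 largest and 5 smallest OE33 differences at a mean count of at least 100, the 3 smallest p-values of each tested contrast, the members at the arm boundary and those at the count limit. Others were added where a count of 5 or fewer is named, or were chosen after their values were seen. Scripts were tested on simulated data. Alternatives were other filters, scalings and tools, the fit without the batch block, a block for each genotype and batch, and the data without each batch or single libraries. The 2 without a single SK-GT-4 library were chosen after seeing the data.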

Additional observations from a re-analysis of the deposited data

Results flagged for a closer look

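Among 60 groups of 6 libraries examined for a value far from the rest, 10 held one, where chance gives about 1 in 20. Several groups hold overlapping measures of the same libraries, so nothing is read from the excess. In OE33, 4 of the 10 values came from the library labelled cGAS KO DMSO replicate 2. Its level was 0.28 over all members (0.52 to 0.64 in the other cGAS KO libraries) and 0.12 on the q arm (0.53 to 0.65). It had 15.3 CPM of CGAS (2.23 to 2.72) and 0.576% of nonmitochondrial counts on the members (0.724 to 0.789%). A pair of single genes stood out in OE33 Cas9 libraries, MPPE1 at 6.40 CPM in MPS1i replicate 3 (others 3.47 to 4.23) and ANKRD20A5P at 1.58 CPM in DMSO replicate 1 (others 0.972 to 1.13).

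In SK-GT-4, the library labelled Cas9 MPS1i replicate 2 had a level of -0.28 over all members (others -0.003 to 0.08) and of -0.32 on the q arm (others -0.003 to 0.10). The level of cGAS KO MPS1i replicate 1 was 0.13 (others -0.06 to 0.0002). In cGAS KO DMSO replicate 1 the members took 0.629% of nonmitochondrial counts (others 0.787 to 0.843%), and its TMM factor, 0.758, was the lowest of the line. No cause was tested for these values.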

How the results depend on the processing

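The median over members in OE33 cGAS KO stayed between 0.49 and 0.57 under the alternatives run, and chromosome 18 stayed first of 23 chromosomes in OE33 under the 6 run for it. Counts of members called moved more, and the cause was not tested. For OE33 cGAS KO over both treatments (94 called), the fit without the replicate block called 21, leaving out 1 batch gave 9 to 77, and leaving out the library labelled cGAS KO DMSO replicate 2 gave 129. In DMSO (24) the counts were 52 at an adjusted p of 0.05, 58 without a filter, 45 with DESeq2, 0 without the block, 0 to 27 without 1 batch and 59 without that library. In MPS1i (34) they were 76, 75, 60, 0, 0 to 22 and 70 in the same order. For SK-GT-4 cGAS KO over both treatments (14) they were 23 at 0.05, 27 with DESeq2, 8 without the block, 0 to 10 without 1 batch and 22 without Cas9 MPS1i replicate 2. In DMSO (1) they were 6 at 0.05, 3 with filterByExpr, 4 without a filter, 3 with DESeq2's size factors in edgeR, 17 with DESeq2, 0 without the block and 0 to 4 without 1 batch. They were 5 without cGAS KO DMSO replicate 1 and 9 without Cas9 MPS1i replicate 2. In MPS1i (4) they were 9 at 0.05, 15 with DESeq2, 0 without the block, 0 to 4 without 1 batch and 10 without cGAS KO DMSO replicate 1. MPS1i in OE33 Cas9 gave 1 call without a filter and 1 with a replicate block per genotype and batch, and the interaction gave 1 without a filter, SERPINB2 in each case. That block changed no other count of calls for MPS1i or the OE33 interaction.

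When batches were left out, the p arm median ranged from 0.53 to 0.60 in OE33 and from -0.12 to 0.031 in SK-GT-4. The OE33 median in MPS1i (0.56) ranged from 0.54 to 0.57 and was 0.54 without the library labelled cGAS KO DMSO replicate 2. DHFRP1 ranged from -0.88 to 0.11 and PHLPP1 from -0.26 to 0.041, so that both changed sign, without batch 2 and without batch 1. Of the 2 members just above 20 counts, SIGLEC15 (mean count 21.1) had an SE of 0.315 and PRELID3A (27.9) one of 0.203.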
